A study of Homo sapiens with 3 samples.

Results

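The D cyclins (CCND1, CCND2, CCND3), their kinases CDK4 and CDK6, and the inhibitors of these kinases (CDKN1A, CDKN1B, CDKN2A, CDKN2B, CDKN2C) were followed in KMS11, an established human multiple myeloma line with the t(4;14) translocation. Members were found by symbol: every probe set whose single symbol was one of these 10 genes was taken, which gave 23 probe sets of 9 genes out of 41091 probe sets with 1 symbol. CDKN2C had no probe set under its own symbol in the annotation used here and was not analysed here. The cells carried lentiviral short hairpin RNAs, which lower a chosen mRNA, and were harvested 48 h after infection began. The groups were shMMSET#2 and shMMSET#4, a pair of hairpins against MMSET (current symbol NSD2, the histone methyltransferase gene that the translocation overexpresses), and shLuc, a hairpin against luciferase, with 1 array each. All 3 groups received virus and polybrene. The sources used here give neither the share of infected cells nor any drug selection. With 1 array a group, no test was possible between groups and no p-value is given, and the number of arrays limits the precision.

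In a dividing cell, a D cyclin binds CDK4 or CDK6, and the active kinase phosphorylates the retinoblastoma protein, which then releases E2F factors and lets the cell enter S phase. The INK4 proteins, encoded by CDKN2A, CDKN2B and CDKN2C, bind CDK4 and CDK6 and keep them from the cyclin, whereas p21 (CDKN1A) and p27 (CDKN1B) bind cyclin and kinase together and inhibit CDK2 above all. Dysregulation of a D cyclin gene is a common feature of multiple myeloma, and myelomas with t(4;14) or with a MAF translocation typically express CCND2.

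The promoters of the kinase gene and the inhibitor gene with the clearest differences are printed first. The RefSeq promoter table of GRCh38.p14 held 14 windows for 8 of the members, and CCND1 and CCND2 were not among them. Only the 250 bases before each start were read. They were searched on both strands for the E-box CACGTG, which MYC and related factors bind, and for TTTNNCGC, a loose form of the E2F motif. An E-box was present in 6.34% of all 35116 windows of this length, and 3 or more were present in 0.0797% of them. The CDK4 window held 3, with first bases at -216, -196 and -101 counted from -1 just before the start. An E-box was in 3 of the 14 member windows, the others being windows of CDKN2C, with first bases at -220 and -69. The CDKN2B window held none, and TTTNNCGC was in none of the 14 member windows, against 5.92% of all windows. These are letters in a window, not shown to be bound sites. CDK4 lies on the minus strand at chr12:57752311-57752560 and CDKN2B on the minus strand at chr9:22009306-22009555, 5′ to 3′, with E-boxes in capitals.
CDK4: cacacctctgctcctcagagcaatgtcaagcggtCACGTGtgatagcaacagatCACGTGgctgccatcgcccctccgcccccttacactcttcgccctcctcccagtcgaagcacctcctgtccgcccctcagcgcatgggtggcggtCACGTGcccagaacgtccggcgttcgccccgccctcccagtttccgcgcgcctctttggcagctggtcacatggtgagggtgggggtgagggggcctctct
CDKN2B: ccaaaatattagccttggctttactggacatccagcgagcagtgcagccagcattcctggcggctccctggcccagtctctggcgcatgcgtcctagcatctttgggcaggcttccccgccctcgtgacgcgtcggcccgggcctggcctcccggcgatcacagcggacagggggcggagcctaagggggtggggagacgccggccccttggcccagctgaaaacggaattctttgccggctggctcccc

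The values were MAS5 signals, which are linear brightness values per probe set, and the arrays had been scaled to a common level by the authors. Signals under 41.2, the 40th percentile over all arrays, were treated as a floor. Where only 1 array of a pair exceeded the floor, the fold is a lower limit, given as "at least". A probe set was tested, that is counted in shares, where its signal exceeded the array's median on at least 1 array. "Called" means at least 2-fold from shLuc. The only measure of spread was the difference between the shMMSET arrays, which also holds real differences between these hairpins. Probe sets were parted into 10 bins of equal size by mean signal, and the fold that held 95% of a bin is given below as the spread. It was 1.79-fold in the brightest bin.

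On its brightest probe set the targeted gene, NSD2, had signals of 7032 with shMMSET#2 and 7476 with shMMSET#4, against 10300 with shLuc, a difference smaller than the spread. Over its 6 probe sets the log2 ratio lay between -2.69 and -0.54 with shMMSET#2 and between -1.62 and 0.05 with shMMSET#4, so the extent of silencing depends on the probe set. The median signal was 62.0 and 59.5 on the shMMSET arrays and 77.4 on the shLuc array, and the log2 excess of the 3′ over the 5′ ACTB control probe set was 1.14 on each shMMSET array and 1.70 on the shLuc array. For GAPDH this excess lay between 0.00 and 0.10. All 8 plasma cell markers on the list were above the median signal on every array, with summed signals of 70177, 93807 and 111445 with shMMSET#2, shMMSET#4 and shLuc. Of 9 measured markers of other cells, 3, 3 and 6 were above the floor, and EPCAM, an epithelial adhesion gene, was bright in KMS11 (4391, 10651 and 8099). Without EPCAM their summed signals were 503, 363 and 571. The part of these array differences in the results below was not tested. Scaling every array to the same median signal put the median log2 ratio of the tested probe sets at 0.24 with shMMSET#2 and 0.29 with shMMSET#4, whereas it was -0.05 and -0.06 with the deposited scaling. Ratios of probe sets above the floor on all arrays rise by about that difference under this scaling, and those that involve the floor rise by less or not at all.

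Over the set, 20 of the 23 member probe sets were tested. With shMMSET#2, 3 of these 20 (15%) were at least 2-fold higher than with shLuc and 1 (5%) was at least 2-fold lower, against 6.00% higher and 10.6% lower among all 25458 tested probe sets. With shMMSET#4, 7 (35%) were higher and 1 (5%) was lower, against 6.02% higher and 10.8% lower among all. With the arrays scaled to the same median, 10 of the 20 members were higher and 1 was lower with each hairpin, but the shares of all tested probe sets also moved, to 12.2% higher and 5.17% lower with shMMSET#2 and 13.6% higher and 4.53% lower with shMMSET#4. The median log2 ratio of the tested members was 0.67 with shMMSET#2 and 0.63 with shMMSET#4, and with the arrays scaled to the same median it was 0.93 and 1.01. Of the 20, 3 passed the filter only through a shMMSET array, both probe sets of CCND1 and 1 of CCND3, so their higher values are partly fixed by the filter. The comparisons share the shLuc array, and the probe sets of a gene share its transcripts, so these shares do not count separate genes. With the deposited scaling, those higher with shMMSET#2 were 2 of CDK6 and 1 of CDK4. Those higher with shMMSET#4 were 3 of CDK6, 2 of CCND1, 1 of CCND2 and 1 of CDK4. By brightest probe set, only CDK4 was at least 2-fold higher with shMMSET#2, and only CDK4 and CCND1 with shMMSET#4.

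**Figure D1:**
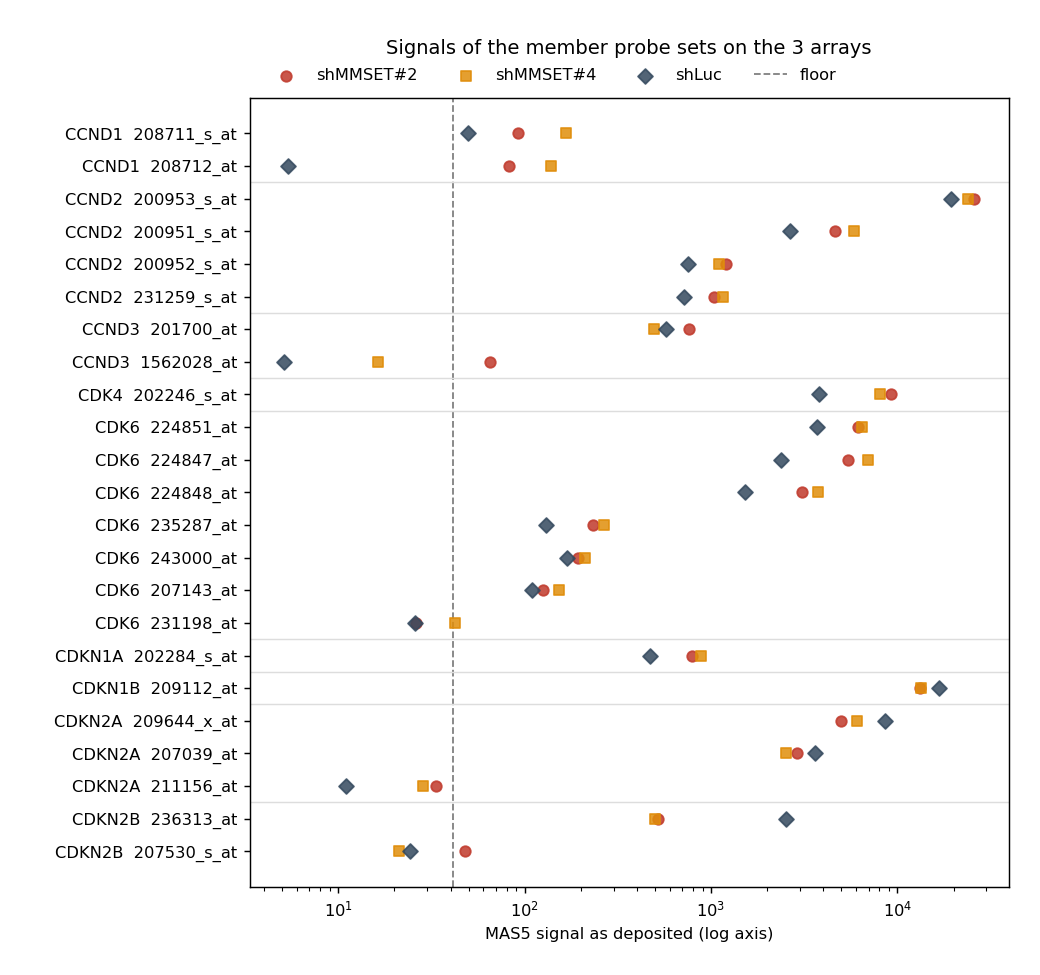
Deposited MAS5 signal (log axis) of each of the 23 member probe sets on the shMMSET#2 array (circles), the shMMSET#4 array (squares) and the shLuc array (diamonds), 1 array each, with the floor of 41.2 as a dashed line. The shMMSET points of CDK4, CCND2 and the brighter CDK6 probe sets lie to the right of shLuc, and those of CDKN2B 236313_at lie far to the left of it.

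CCND2, the D cyclin of myelomas of this kind, was measured by 4 probe sets, and all were higher with both MMSET hairpins. Probe set 200953_s_at had signals of 25831 with shMMSET#2 and 23826 with shMMSET#4, against 19310 with shLuc, which is 1.34-fold and 1.23-fold higher. Probe set 200951_s_at had 4638 and 5816, against 2656 with shLuc (1.75-fold and 2.19-fold higher), and was the only CCND2 probe set past 2-fold, with shMMSET#4 alone. The other probe sets gave 1209 and 1108 against 749 (200952_s_at, 1.62-fold and 1.48-fold higher) and 1032 and 1158 against 720 (231259_s_at, 1.43-fold and 1.61-fold higher). The shLuc array was thus the lowest for each CCND2 probe set, but apart from 200951_s_at with shMMSET#4 (spread 1.79-fold) no difference exceeded the spread, and the probe sets differ in how large they make it. MAF drives CCND2 in myelomas with a MAF translocation, and whether KMS11 carries one was not examined here. On its brightest probe set MAF had signals of 5213 with shMMSET#2 and 14083 with shMMSET#4, against 15208 with shLuc. It was thus 2.92-fold lower with shMMSET#2, and its part in the CCND2 values was not tested. With shMMSET#4 its log2 ratio was -0.11, or 0.27 with medians made equal.

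CCND1, the D cyclin of myelomas with t(11;14), was dim. Probe set 208711_s_at had signals of 92.6 with shMMSET#2 and 166 with shMMSET#4, against 49.7 with shLuc, which is 1.86-fold and 3.33-fold higher. Probe set 208712_at had 81.9 and 139, and was at the floor with shLuc (5.36), so it was higher by at least 1.99-fold with shMMSET#2 and 3.37-fold with shMMSET#4. Both probe sets thus put shMMSET#4 highest and shLuc lowest. They passed the filter only through the shMMSET arrays, so their higher values are partly fixed by it. With shMMSET#4 both exceeded the spread (2.95-fold and 2.69-fold), while with shMMSET#2 neither did. With the floor raised to the 60th percentile, the log2 ratio of the brighter probe set dropped to 0 with shMMSET#2 and 0.49 with shMMSET#4, so the size of the CCND1 difference depends on signals close to background.

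CCND3, the D cyclin activated by t(6;14), did not take a common direction. Probe set 201700_at had signals of 760 with shMMSET#2 and 492 with shMMSET#4, against 571 with shLuc, which is 1.33-fold higher and 1.16-fold lower. The shLuc value lay between the others, and both differences were within the spread of 2.20-fold. With medians made equal, the log2 ratio with shMMSET#4 changed sign, to 0.17. A second probe set, 1562028_at, was above the floor with shMMSET#2 alone (64.8), and was 16.4 with shMMSET#4 and 5.12 with shLuc.

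CDK4 had 1 probe set, 202246_s_at, with signals of 9208 with shMMSET#2 and 8092 with shMMSET#4, against 3782 with shLuc. It was 2.43-fold and 2.14-fold higher than with shLuc, past the spread of 1.79-fold, and the shMMSET arrays lay within 1.14-fold of each other. With the arrays scaled to the same median, its log2 ratios were 1.60 with shMMSET#2 and 1.48 with shMMSET#4. Under quantile normalization they were 1.26 and 1.01. The floor settings and averaging over probe sets could not change the ratio of a single bright probe set. MYC, whose product is known to activate CDK4 through E-boxes in its promoter, had signals of 2979 with shMMSET#2 and 7547 with shMMSET#4, against 9616 with shLuc. MYC was thus 3.23-fold lower under shMMSET#2 and 1.27-fold under shMMSET#4, and its part in the CDK4 values was not tested. With medians made equal, MYC had a log2 ratio of 0.03 with shMMSET#4.

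CDK6, the partner kinase of CDK4 in blood cells, was measured by 7 probe sets, and the 3 bright ones were all higher with both MMSET hairpins. Probe set 224847_at had signals of 5397 with shMMSET#2 and 6955 with shMMSET#4, against 2383 with shLuc (2.26-fold and 2.92-fold higher). Probe set 224848_at had 3092 and 3743, against 1516 with shLuc (2.04-fold and 2.47-fold higher). The brightest, 224851_at, had 6136 and 6435, against 3723 with shLuc (1.65-fold and 1.73-fold higher), which is within the spread of 1.79-fold, whereas 224847_at and 224848_at exceeded theirs (1.79-fold and 1.98-fold). On each of these the shLuc array was lowest and shMMSET#4 highest. Among the dim probe sets, 235287_at had 233 and 266, against 131 with shLuc (1.78-fold and 2.04-fold higher, spread 2.54-fold). The dim 243000_at was 1.14-fold and 1.25-fold higher and 207143_at was 1.15-fold and 1.41-fold higher, both within their spread. The last, 231198_at, was not tested, with 26.0 and 42.3, against 25.7 with shLuc. The CDK6 probe sets therefore agreed in sign where they were tested and disagreed in size.

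**Figure D2:**
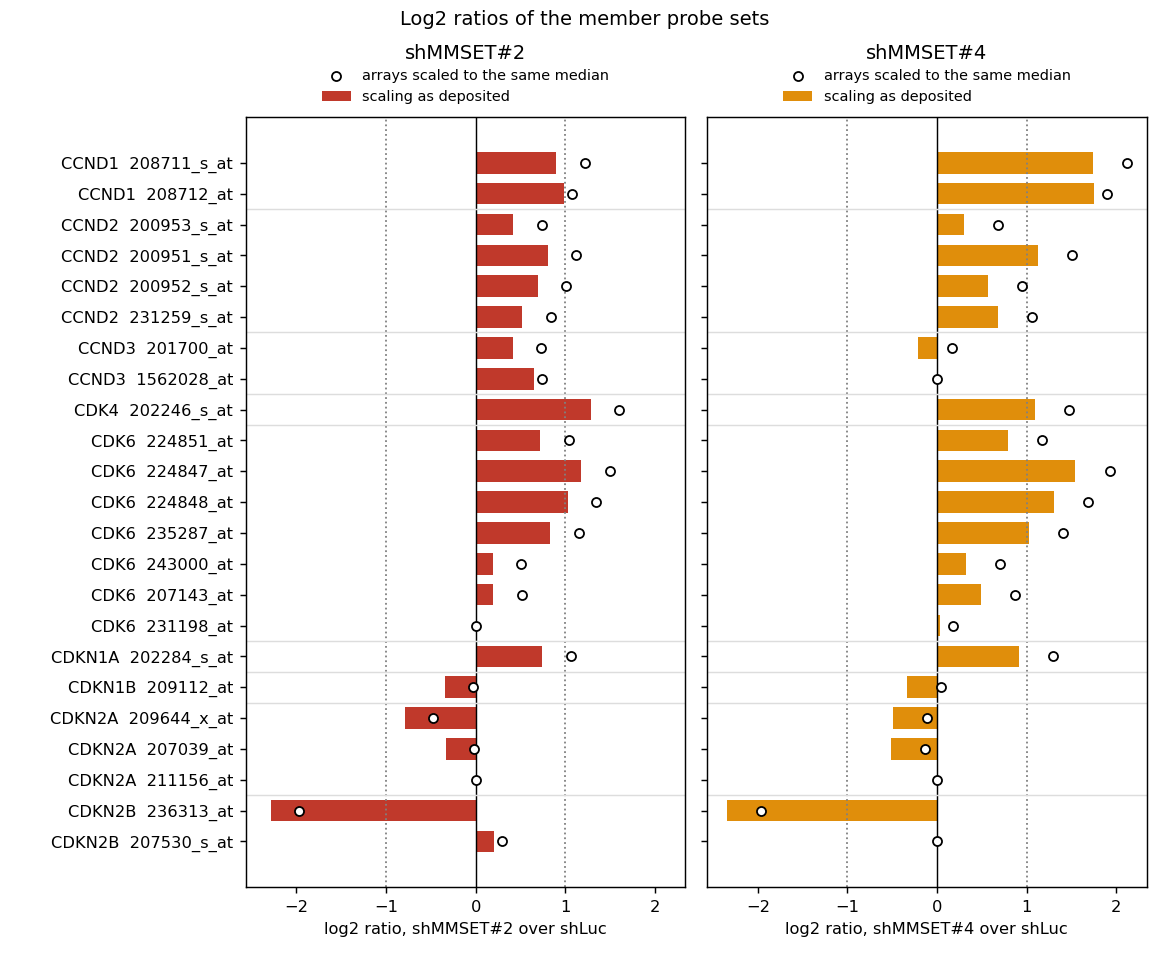
Log2 ratio of each member probe set with shMMSET#2 over shLuc (left) and shMMSET#4 over shLuc (right), with the deposited scaling (bars) and with the arrays scaled to the same median signal (open circles). Dotted lines mark 2-fold. CDK4 and 2 CDK6 probe sets pass 2-fold upward in both panels, CDKN2B 236313_at passes 2-fold downward in both, and the circles of CDKN1B lie at about 0.

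CDKN1A, the p53-induced inhibitor p21, was measured by 202284_s_at, with signals of 786 with shMMSET#2 and 885 with shMMSET#4, against 470 with shLuc. It was 1.67-fold and 1.88-fold higher, with the shLuc array lowest, but under 2-fold and within the spread of 2.20-fold. With the arrays scaled to the same median its log2 ratios were 1.06 and 1.29, past 2-fold with each hairpin. CDKN1B (p27), the inhibitor that restrains CDK2 in resting cells, was measured by 209112_at and was 1.27-fold and 1.26-fold lower, with 13163 with shMMSET#2 and 13297 with shMMSET#4, against 16737 with shLuc. The shMMSET arrays were within 1.01-fold of each other. This difference was within the spread, and scaling to the same median signal brought the log2 ratios to -0.03 and 0.05, whereas quantile normalization left them at -0.27 and -0.33.

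CDKN2B, which encodes the inhibitor p15, gave the widest member ratio with all arrays above the floor, on probe set 236313_at, with signals of 519 with shMMSET#2 and 500.0 with shMMSET#4, against 2536 with shLuc. The signals were thus 4.88-fold lower (shMMSET#2) and 5.07-fold lower (shMMSET#4), past the spread of 2.20-fold, and the shMMSET arrays lay within 1.04-fold of each other. The second CDKN2B probe set, 207530_s_at, was at the floor with shLuc, so it could not show such a difference. It had 47.6 with shMMSET#2 and 21.1 with shMMSET#4, against 24.3 with shLuc, was at the floor on the last 2 and was not tested. Averaged over both probe sets, the log2 ratios of CDKN2B were -1.04 and -1.17, but with shMMSET#4 the floor sets the second ratio to 0. The CDKN2B difference therefore rests on 1 probe set, and which of them better reports the transcript was not tested.

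CDKN2A, next to CDKN2B on chromosome 9, encodes the inhibitor p16 and, in another reading frame, the p53 activator ARF. Its bright probe sets were lower with both hairpins by less than 2-fold. Probe set 209644_x_at had signals of 4968 with shMMSET#2 and 6103 with shMMSET#4, against 8606 with shLuc (1.73-fold and 1.41-fold lower, spread 1.79-fold). Probe set 207039_at had 2875 and 2529, against 3624 with shLuc (1.26-fold and 1.43-fold lower, spread 1.98-fold). The shLuc array was highest for both, but no difference exceeded the spread, and scaling to the same median signal left log2 ratios between -0.47 and -0.01. The third probe set, 211156_at, was at the floor on every array (33.3, 28.4 and 11.0 with shMMSET#2, shMMSET#4 and shLuc). These probe sets were not assigned to p16 or ARF here. CDKN2B-AS1, the antisense transcript of this locus, was at the floor on all arrays.

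By the rule of likeness over the 3 arrays, the genes closest to CDKN2B were LOC101927723, the catenin gene CTNNA2 and CTTNBP2, with Euclidean distances of 0.046, 0.063 and 0.086 between centred log2 signals. CTTNBP2 had signals of 75.6 with shMMSET#2 and 74.8 with shMMSET#4, against 349 with shLuc. The other two were at the floor with both MMSET hairpins, with 210 (LOC101927723) and 197 (CTNNA2) with shLuc. With 3 arrays such a pattern is a description of 3 numbers.

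**Figure D3:**
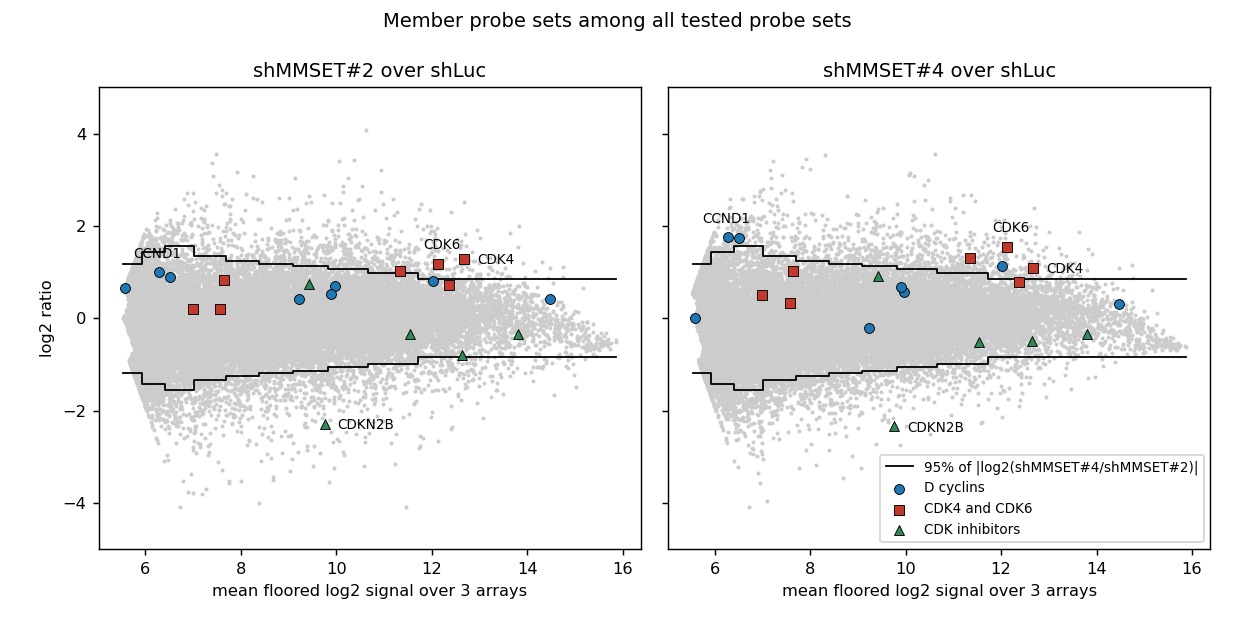
Log2 ratio against the mean floored log2 signal for all 25458 tested probe sets (grey), with the tested members marked by role, for shMMSET#2 (left) and shMMSET#4 (right) over shLuc. Black lines give, in each of 10 bins of mean signal, the range that held 95% of probe sets between the shMMSET arrays. CDK4 and the higher CDK6 points lie above the upper line in both panels, and CDKN2B lies below the lower line.

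Other genes of the G1 pathway were counted by their brightest probe sets. Of 62 listed, 57 were tested. With shMMSET#2, 2 of these (3.51%) were at least 2-fold higher and 5 (8.77%) at least 2-fold lower, against 5.69% and 10.7% of all 13296 tested genes. With shMMSET#4, 5 (8.77%) were higher and 3 (5.26%) lower, against 6.74% and 8.95% of all. These shares are near those of all genes. With the arrays scaled to the same median, 6 were higher and 3 lower with shMMSET#2, against 12.2% and 5.44% of all tested genes under that scaling. With shMMSET#4, 10 were higher and 0 lower, against 14.9% and 3.77%. The median log2 ratio was 0.03 with shMMSET#2 and -0.06 with shMMSET#4, and -0.04 and -0.02 over all tested genes.

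Of 9 genes of cyclin E, cyclin A, CDK2 and the CDK-activating kinase, 2 were called lower with shMMSET#2, and 1 was called lower and 1 higher with shMMSET#4. CCNE2, a cyclin that activates CDK2 at the start of S phase, had signals of 1463 with shMMSET#2 and 6954 with shMMSET#4, against 6408 with shLuc, and was 4.38-fold lower with shMMSET#2 and 1.09-fold higher with shMMSET#4. Its dimmer probe set did likewise (219 and 901, against 731 with shLuc). CCNE1, the other E cyclin, had 307 and 679, against 218 with shLuc, and was 1.41-fold and 3.11-fold higher. CCNA1, a cyclin best known from the germ line, was 2.16-fold and 2.26-fold lower, within the spread of 2.54-fold, and CDK2, the kinase of cyclins E and A, was 1.51-fold and 1.80-fold higher, within 1.98-fold. The dimmer CDK2 probe set 211804_s_at had signals of 394 with shMMSET#2 and 401 with shMMSET#4, against 166 with shLuc, and was 2.37-fold and 2.41-fold higher, at or just past its spread of 2.37-fold. The hairpins thus differed in CCNE2 by 4.75-fold, past its spread of 1.79-fold and more than in any D cyclin with a bright probe set. For CCNE1 they differed by 2.21-fold, within its spread of 2.27-fold. Of 3 other CDK inhibitors, 1 was called. CDKN2D, the INK4 gene of p19, had 611 and 196, against 398 with shLuc (1.53-fold higher and 2.03-fold lower). CDKN1C (p57) was 1.18-fold and 1.28-fold lower, but with medians made equal its log2 ratios were 0.09 and 0.02, and its dimmer tested probe sets had log2 ratios between -0.76 and 0.27 with shMMSET#2. CDKN3, a phosphatase of CDK2, was 1.26-fold and 1.25-fold lower, but with medians made equal its log2 ratio with shMMSET#4 was 0.06.

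Of 13 pocket protein and E2F genes, 1 was called, higher, with each hairpin, and none was called lower with either. RBL1, which encodes the retinoblastoma relative p107, had signals of 1522 with shMMSET#2 and 1644 with shMMSET#4, against 694 with shLuc (2.19-fold and 2.37-fold higher, spread 2.09-fold). Its dimmer tested probe sets were less different, and 1559307_s_at was lower with shMMSET#4 (log2 ratios 0.81 and -0.25, the second a bound). E2F8, an atypical repressor of the family, was 1.14-fold and 1.89-fold higher, and E2F1, an activator, was 1.74-fold and 1.63-fold higher. RBL2, which encodes p130, was 1.14-fold and 1.81-fold lower, but with medians made equal its log2 ratio with shMMSET#2 was 0.13, and its dimmer probe set 212332_at (302 and 266, against 244 with shLuc) was 1.24-fold and 1.09-fold higher. RB1 itself, on its brightest probe set, had 3432 and 3442, against 3363 with shLuc.

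Of 13 genes for the turnover of D cyclins and p27, UBAC1 was called higher with each hairpin and SKP2 was called lower with shMMSET#2. UBAC1, a subunit of a ubiquitin ligase for p27, had signals of 807 with shMMSET#2 and 1164 with shMMSET#4, against 256 with shLuc (3.15-fold and 4.54-fold higher, spread 2.20-fold). SKP2, the F-box protein that targets p27, was 2.29-fold and 1.41-fold lower, and its dimmest tested probe set went the other way (log2 ratios 0.04 and 0.53, both bounds). FBXW7, the F-box protein for cyclin E, was 1.68-fold higher and 1.07-fold lower, the second a log2 ratio of 0.29 with medians made equal, and its dimmest tested probe set was lower with both hairpins (log2 ratios -0.94 and -0.57, the first a bound). CRYAB, an F-box cofactor for cyclin D1, was at the floor with shLuc and higher by at least 1.60-fold with shMMSET#2 and 1.80-fold with shMMSET#4. Both bounds lay within the spread of 2.26-fold. CRYAB passed the filter only through the shMMSET arrays, so its higher values are partly fixed by it.

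Of 24 regulators of transcription of these genes, 19 were tested. With shMMSET#2, 2 were called lower, MYC and MAF, and none was called higher. With shMMSET#4, FOXO1 and ETS1 were called higher and FOXO4 lower. FOXO1, a factor that activates CDKN1B, had signals of 124 with shMMSET#2 and 245 with shMMSET#4, against 92.1 with shLuc (1.35-fold and 2.66-fold higher), although its probe set 202723_s_at was lower (log2 ratios -1.44 and -0.60, the first a bound). The brighter FOXO3, on the same list, was lower with both hairpins on every probe set. Its brightest had signals of 8292 and 11940, against 16389 with shLuc (1.98-fold and 1.37-fold lower, spread 1.79-fold). With medians made equal these log2 ratios were -0.66 and -0.08. ETS1, a factor that can activate CDKN2A, had 4320 and 6111, against 2330 with shLuc (1.85-fold and 2.62-fold higher). Its dimmer probe sets had log2 ratios between -0.69 and -0.01, all within their spread. With medians made equal these were 0.07 and 0.37 for 1555355_a_at and 0.18 and -0.30 for 214447_at.

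**Figure D4:**
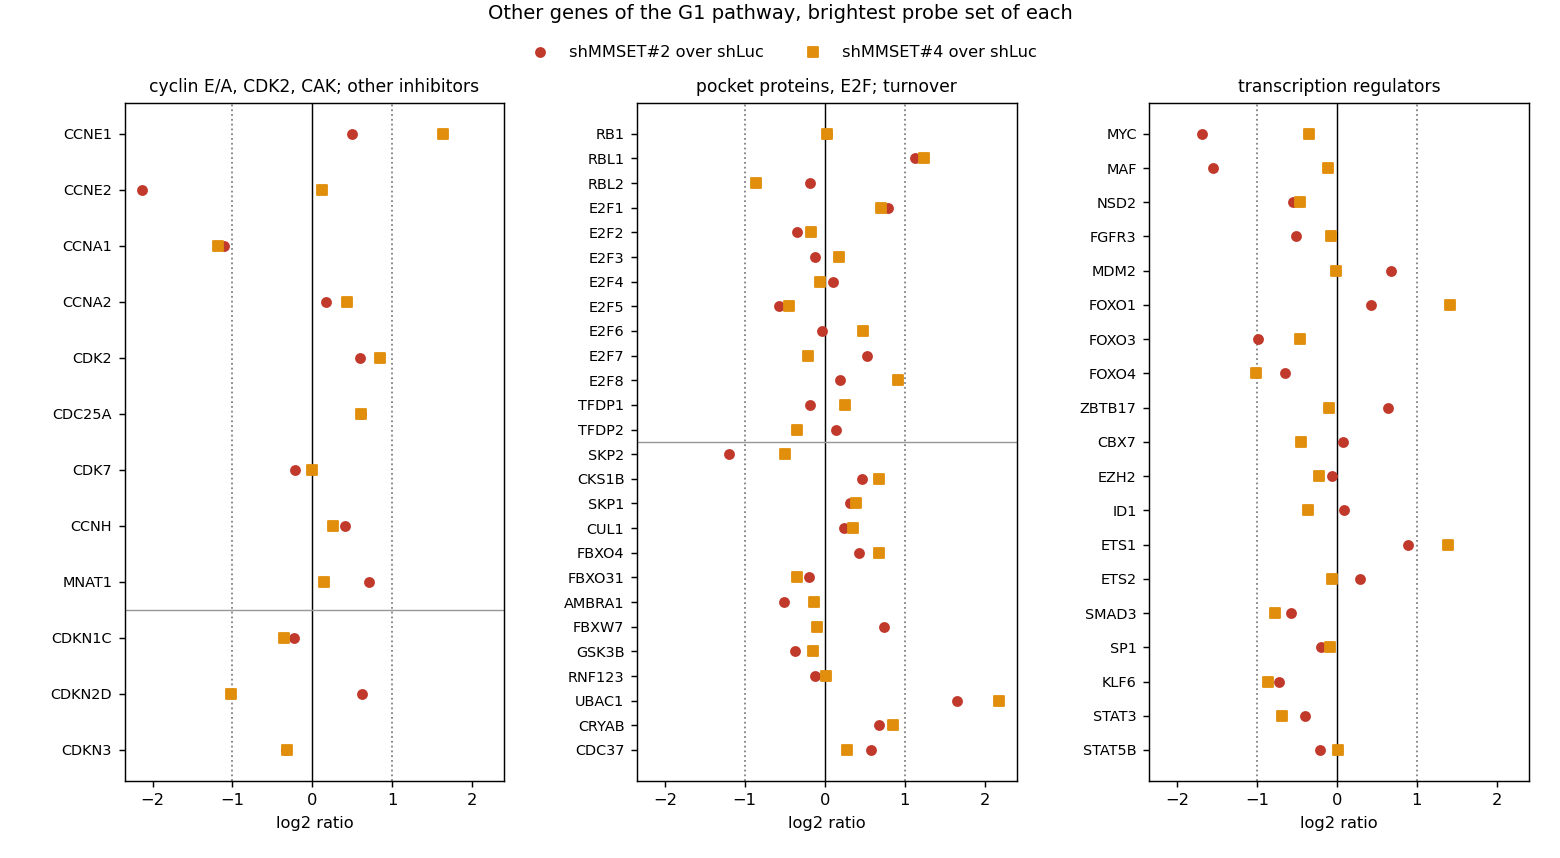
Log2 ratio over shLuc with shMMSET#2 (circles) and shMMSET#4 (squares) for the 57 tested genes of the G1 pathway lists, each by its brightest probe set. Dotted lines mark 2-fold and grey lines part the lists within a panel. CCNE2, MYC and MAF lie past 2-fold downward with shMMSET#2 alone, and RBL1 and UBAC1 lie past 2-fold upward with both hairpins.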

How the data were processed

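RNA of KMS11 cells was hybridised to Affymetrix arrays, 1 array per hairpin. The deposited values are linear intensities per probe set, made with MAS5 per the submitters' processing notes, and the design text names GeneSpring. Their versions are not given in the sources used here. That text also names a U133 A array, whereas the 54675 identifiers are those of HG-U133 Plus 2.0. The 2% trimmed mean was 500.1 on every array, so the authors had scaled them alike, and no rescaling was done.

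Leaving out 62 control probe sets, 41091 had 1 symbol in the platform annotation (41043 updated by Entrez identifier against RefSeq, GRCh38.p14), 1801 had several and 11721 were unnamed here. Intensities were floored at the 40th percentile (41.2) and taken to log2. Of 19775 genes, 13296 passed the filter. Each gene outside the members was represented by its brightest probe set. Named genes were all members, up to 4 per further list by the larger absolute ratio, and NSD2, MYC and MAF. RB1, FOXO3, FOXO4, CDKN2B-AS1, EPCAM and the genes in the closing section beyond this rule were chosen after their values were seen. Members and lists were chosen with earlier results of these data known. The steps were tested on simulated data. Alternatives were 2 scalings, 2 floors, 2 filters, 2 thresholds, dropping identifiers ending in _x_at or _s_at, and averaging probe sets. Python 3.11.15, numpy 2.4.6, pandas 2.3.3 and matplotlib 3.10.9 were used.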

Additional observations from a re-analysis of the deposited data

How the results depend on the processing

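The count of member probe sets at least 2-fold higher with shMMSET#2, 3 as reported, became 10 with the arrays scaled to the same median signal, 5 with quantile normalization, 5 with no floor, 11 at 1.5-fold and 0 at 3-fold. With shMMSET#4, 7 as reported, it became 2 at 3-fold and 4 without identifiers ending in _x_at or _s_at. That setting drops CDK4 202246_s_at, CCND1 208711_s_at and CCND2 200951_s_at. The count lower with shMMSET#2, 1 as reported, became 2 at 1.5-fold. The other settings left these counts within 1.5 times. The causes were not tested. Of 102 log2 ratios of members recomputed, 96 moved by less than 1 SD of the log2 difference between the shMMSET arrays in their signal bin. None of those past 2-fold changed sign. Many could not move, so this share is not a measure of robustness. A floor leaves bright probe sets unchanged, and averaging leaves genes with 1 probe set unchanged. Dropping identifiers ending in _x_at or _s_at leaves a gene unchanged where its brightest probe set has another ending. Without these identifiers, CCND2, CDK4 and CDKN1A had no value. Of pathway genes with shMMSET#4, none was at least 2-fold lower under quantile normalization, against 3 as reported. No paired analysis was possible because each group had 1 array. Signals near the floor limit CCND1, CCND3 1562028_at and the second CDKN2B probe set.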

Other observations

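Genes next to the members on the chromosome were read by their brightest probe sets. TSPAN31, a tetraspanin gene that overlaps CDK4 in the RefSeq gene table, had signals of 1036 with shMMSET#2 and 987 with shMMSET#4, against 1743 with shLuc (1.68-fold and 1.77-fold lower), whereas CDK4 was higher. SAMD9 and SAMD9L, an interferon-induced pair beside CDK6, had opposite ratios to CDK6: SAMD9L was 2.41-fold and 1.78-fold lower and SAMD9 was 1.78-fold and 2.26-fold lower. BYSL, a ribosome assembly gene beside CCND3, had signals of 818 with shMMSET#2 and 978 with shMMSET#4, against 417 with shLuc (1.96-fold and 2.34-fold higher), while CCND3 had no common direction. MYEOV, a protein-coding neighbour of CCND1, was 1.47-fold and 3.14-fold higher. LTO1, another neighbour of CCND1, was 1.10-fold and 1.42-fold lower. With medians made equal its log2 ratios were 0.19 with shMMSET#2 and -0.12 with shMMSET#4. Its dimmer probe set 228676_at had signals of 97.5 with shMMSET#2 and 32.1, at the floor, with shMMSET#4, against 101 with shLuc, so the second ratio is a bound of at least 2.45-fold lower. MTAP, the protein-coding gene beside CDKN2A, had 935 and 1014, against 902 with shLuc. Of 20 tested neighbours, 3 were called lower and 1 higher with shMMSET#2, and 2 lower and 2 higher with shMMSET#4. Among all tested genes, 10.7% were lower and 5.69% higher with shMMSET#2 and 8.95% lower and 6.74% higher with shMMSET#4, so the neighbours are near these shares.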
